A study of Mus musculus with 2 samples.

Results

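H4K12la is histone H4 with a lactyl group on lysine 12. Peaks of this mark were examined that were called in Neuro2a cells given NaCl, lay at an end of exactly 1 protein-coding gene, and overlapped no peak called in cells given lactate. Neuro2a is a mouse neuroblastoma line, labelled as brain tumour cells, and the study had 1 library from NaCl-treated cells and 1 from cells treated with 25 mM lactate. Both were made by CUT&Tag, in which an antibody guides a transposase to the mark so that the DNA beside it is tagged and sequenced. The question named by the submitters is whether H4K12la regulates transcription. A control peak was a member when it met, by at least 1 bp, the window of 1000 bp on either side of an annotated gene end and overlapped no lactate peak by 1 bp. Of 6051 control peaks at an end of exactly 1 gene, 1221 were members (20.2%). Among control peaks anywhere on the chromosomes examined, 29021 of 46561 (62.3%) overlapped no lactate peak. Members lay at 1155 of 21631 protein-coding genes (5.34%), and came from 46561 control peaks and 86288 peaks in both lists on chromosomes 1 to 19 and X. Members were chosen by the position of control peaks and by the absence of a lactate call, so that absence is not a finding, and with 1 library per group no test was run. Every interval below is an exact 95% interval that covers counting error only.

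Lactylation of histone lysines uses a lactyl group derived from lactate, and the mark is best known at promoters of active genes, where it often lies beside acetylation. H4K12 is also a site of acetylation. A promoter rich in CpG dinucleotides, a CpG island, is typical of housekeeping and developmental genes, while promoters poor in CpG are common among genes used in few tissues. In mammals most CpG dinucleotides outside islands are methylated, and CpG is therefore rarer there than its base composition would give. Members are described here beside 2 other sets of gene-end peaks. Shared peaks are the 4830 control peaks at an end of exactly 1 gene that overlapped a lactate peak, at 4348 genes (20.1%). Lactate-only peaks are the 4308 of 8942 such lactate peaks (48.2%) that overlapped no control peak, at 3710 genes (17.2%). Among lactate peaks anywhere, 56.6% overlapped no control peak.

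The promoters of 5 named genes are shown as examples of sequence under members. They are the promoter windows that a member overlay among the 12 named members of highest fold, and do not span the full range of CpG content. Each is a RefSeq promoter on GRCm38.p6, which is the assembly behind mm10. It runs from 250 bases before an annotated start of the gene to 50 after it. It is written along the gene's own strand with each CpG in capitals. There were 21045 promoters for 17274 genes, and that start need not be the gene end from which distances below are measured. The Mme window, for example, lies wholly inside the annotated gene, which starts at 63295211. Defa35 encodes an alpha-defensin, an antimicrobial peptide of Paneth cells, and its window is chr8:21064788-21065087 on the plus strand. Mup17 encodes a major urinary protein, a pheromone carrier made in liver (chr4:61595783-61596082, minus strand). Galnt5 encodes an enzyme that starts mucin-type O-glycosylation (chr2:57997905-57998204, plus strand). Dgkb encodes a diacylglycerol kinase of neurons (chr12:37879924-37880223, plus strand). Mme encodes neprilysin, a peptidase that cleaves neuropeptides (chr3:63295622-63295921, plus strand).
Defa35: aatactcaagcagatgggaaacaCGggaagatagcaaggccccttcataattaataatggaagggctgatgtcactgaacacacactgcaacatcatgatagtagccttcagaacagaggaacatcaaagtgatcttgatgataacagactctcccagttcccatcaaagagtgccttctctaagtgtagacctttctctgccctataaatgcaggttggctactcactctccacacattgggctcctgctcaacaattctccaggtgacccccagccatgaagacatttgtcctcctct
Mup17: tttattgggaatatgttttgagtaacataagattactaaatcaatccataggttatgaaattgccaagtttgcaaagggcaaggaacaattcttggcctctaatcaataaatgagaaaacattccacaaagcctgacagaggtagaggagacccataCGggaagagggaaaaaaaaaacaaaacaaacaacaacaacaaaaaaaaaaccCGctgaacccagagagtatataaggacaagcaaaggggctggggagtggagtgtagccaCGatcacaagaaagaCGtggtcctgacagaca
Galnt5: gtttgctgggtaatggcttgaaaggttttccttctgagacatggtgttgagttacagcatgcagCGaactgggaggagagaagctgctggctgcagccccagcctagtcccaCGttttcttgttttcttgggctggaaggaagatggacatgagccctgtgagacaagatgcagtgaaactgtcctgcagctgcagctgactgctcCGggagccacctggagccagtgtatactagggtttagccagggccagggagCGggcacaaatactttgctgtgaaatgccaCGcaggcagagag
Dgkb: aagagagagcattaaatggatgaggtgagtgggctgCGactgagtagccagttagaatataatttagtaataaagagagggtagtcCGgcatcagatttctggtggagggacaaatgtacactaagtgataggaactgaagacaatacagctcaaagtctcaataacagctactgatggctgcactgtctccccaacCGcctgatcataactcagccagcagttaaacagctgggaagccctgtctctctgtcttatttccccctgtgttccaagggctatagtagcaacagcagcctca
Mme: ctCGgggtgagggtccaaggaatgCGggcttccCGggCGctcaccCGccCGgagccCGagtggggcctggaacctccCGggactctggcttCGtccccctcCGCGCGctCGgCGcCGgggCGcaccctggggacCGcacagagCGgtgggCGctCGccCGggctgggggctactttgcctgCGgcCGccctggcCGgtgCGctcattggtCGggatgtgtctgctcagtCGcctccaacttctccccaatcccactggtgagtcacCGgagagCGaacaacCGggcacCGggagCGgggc
The 5 windows held 1, 4, 5, 3 and 32 CpG in this order. The ratio of observed to expected CpG was 0.065 at Defa35, 0.34 at Mup17, 0.23 at Galnt5, 0.19 at Dgkb and 0.80 at Mme. The Mme window had by far the most CpG of the 5, and the Defa35 window alone holds the letters TATAAA on either strand.

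Members were narrow and low. Their median width was 164 bp, with the middle 50% between 129 and 200 bp, against a median of 305 bp for shared peaks and 220 bp for lactate-only peaks. The narrowest was 100 bp and the widest 900 bp, and 119 (9.75%) reached 300 bp against 2460 shared peaks (50.9%). The median fold enrichment, which is the authors' value at the summit over the local background of the same library, was 3.28 for members, 3.79 for shared and 3.25 for lactate-only peaks. The median −log10 q was 2.45, 3.71 and 3.16, in the same order.

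Summit pileup, the number of reads stacked at the highest point, was recovered from the authors' fold and −log10 p. Members ran from 11 to 57 reads with a median of 14, against 16 for shared and 19 for lactate-only peaks. The lowest pileup of any called peak was 11 in each library, so a place without a lactate call may hold up to about that many reads, or more where the background is higher. Pileups of 11 to 14 reads made up 56.3% of members (53.5% to 59.2%), 29.5% of shared (28.3% to 30.9%) and 18.3% of lactate-only peaks (17.1% to 19.5%). The exact Poisson interval of a member's pileup lay wholly above 11 reads for 151 members (12.4%). For the remaining members the pileup itself was within counting error of the lowest level at which the lactate library was called. The control library had a genome-wide background of 2.958 reads and the lactate library of 3.06. At gene-end peaks the median local background was 3.38 reads for members and 3.3 for shared peaks. It was 4.74 for lactate-only peaks and 5.66 for lactate peaks that overlapped a control peak. The latter had a median of 26 reads at the summit, against 16 for shared control peaks. Members and lactate-only peaks come from different libraries, and how far this bears on their reads was not tested.

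**Figure D1:**
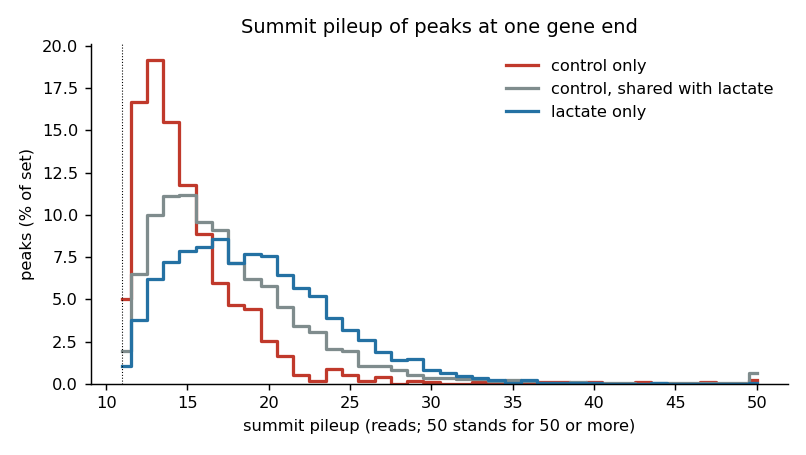
Share of peaks (%) at each summit pileup (reads) for control-only, shared control and lactate-only peaks at an end of exactly 1 gene, with 50 standing for 50 or more; the dotted line is the lowest called pileup, 11 reads. Control-only peaks pile up next to that line, with 56.3% at 11 to 14 reads.

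The members of highest fold are given here without Gm and Rik symbols, of which Gm5114, Gm10323 and Gm6818 had folds of 5.56, 5.31 and 5.05. Defa35 had a fold of 6.82 and 26 reads (17.0 to 38.1) in a 350 bp peak at chr8:21064935-21065284, whose summit was 88 bp inside the gene's 5′ end. Crisp4, which encodes a sperm-coating protein of the epididymis, had a fold of 6.32 and 24 reads (15.4 to 35.7), with the summit 197 bp beyond the 3′ end. Defa3, another alpha-defensin, had a fold of 5.88 and 27 reads (17.8 to 39.3). These 3 members alone reached a −log10 q of 10, and 33 (2.70%) reached 5. The odorant receptor gene Olfr824 followed with a fold of 5.81 and 24 reads.

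Mup17 had a fold of 5.31 and 20 reads, and the summit lay 202 bp inside its 5′ end. Galnt5 and Ptgs2, the gene of cyclooxygenase-2, each had a fold of 5.05 and 19 reads (11.4 to 29.7). Their summits lay 340 and 230 bp inside the 5′ end, so both peaks were within the first part of the gene. Dgkb had a fold of 4.98 and 20 reads in a 486 bp peak 173 bp inside its 5′ end, and the nearest lactate peak was 659400 bp away. Sntn, a gene of motile cilia, and Prpmp5, a proline-rich salivary protein gene, had folds of 4.98 and 4.98. Sis, the intestinal sucrase-isomaltase gene, had a fold of 4.81. The Sntn, Prpmp5 and Sis peaks were nearest to the 3′ end. Mme had a fold of 4.80 and 18 reads (10.7 to 28.4).

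The widest named members differed from those in kind. The 812 bp peak at Crnn, a gene of the cornified cell envelope, lay 127 bp from a lactate peak. Cdh7, a cadherin gene, had a 750 bp peak within the gene at its 5′ end. Its summit lay 310 bp inside that end, with a fold of 4.55, and the nearest lactate peak was 347025 bp away. Peaks at Pou5f2 (a germ-line POU factor) and Arhgap28 were 632 and 624 bp wide. Those at Fam174a and Cc2d2a, a gene of the ciliary transition zone, were 611 and 603 bp wide. Their pileups were 17 to 21 reads. The Arhgap28 peak met the window by 149 bp only, and its summit lay 1382 bp beyond the 3′ end, outside the window.

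A high −log10 q could also stand on a high background. Speer4d had 57 reads (43.2 to 73.9) over a local background of 17.4, which gave a fold of 3.15. Zfp978 had 40 reads over 11.4, and Gm21083 had 52 reads over 19.4. Such places are few: 15 members (1.23%) had a local background of 10 reads or more, against 48 shared peaks (0.994%). Some Speer, Gm, defensin, Mup, Pramel and chemosensory receptor genes may have closely similar copies, which was not measured here. Reads may then have been split or shared among copies, and how such reads were handled is not given in the sources used here.

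Members sat farther from gene ends than the other sets. The median distance from summit to the nearest annotated end was 449 bp, against 182 bp for shared and 304 bp for lactate-only peaks. A member touched the gene itself in 853 cases (69.9%), against 86.9% of shared and 80.6% of lactate-only peaks. Members met the windows of both ends of the same gene in 98 cases (8.03%), against 41 shared (0.849%) and 55 lactate-only peaks (1.28%). Their genes were shorter than those of shared peaks, with a median annotated length of 18360 against 28385 bp, while that of all protein-coding genes was 17329 bp.

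Strand was known, from the promoter table, for 970 members (79.4%), 3947 shared and 3391 lactate-only peaks. Among these, 632 members were nearest to the 5′ end, or 65.2% (62.1% to 68.2%). The share was 95.5% (94.8% to 96.1%) for shared and 90.3% (89.3% to 91.3%) for lactate-only peaks. Members thus lay at a 3′ end in 338 cases, and shared peaks in 179 cases out of a set about 4 times as large. Of the 5′ members, 36.2% (32.5% to 40.1%) had the summit within 250 bp of the end, against 62.3% of shared and 50.3% of lactate-only 5′ peaks. At the 3′ end the corresponding shares were 13.3%, 10.6% and 13.4%. The promoter window itself was overlain by 216 members (22.3%), 2746 shared (69.6%) and 1711 lactate-only peaks (50.5%).

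**Figure D2:**
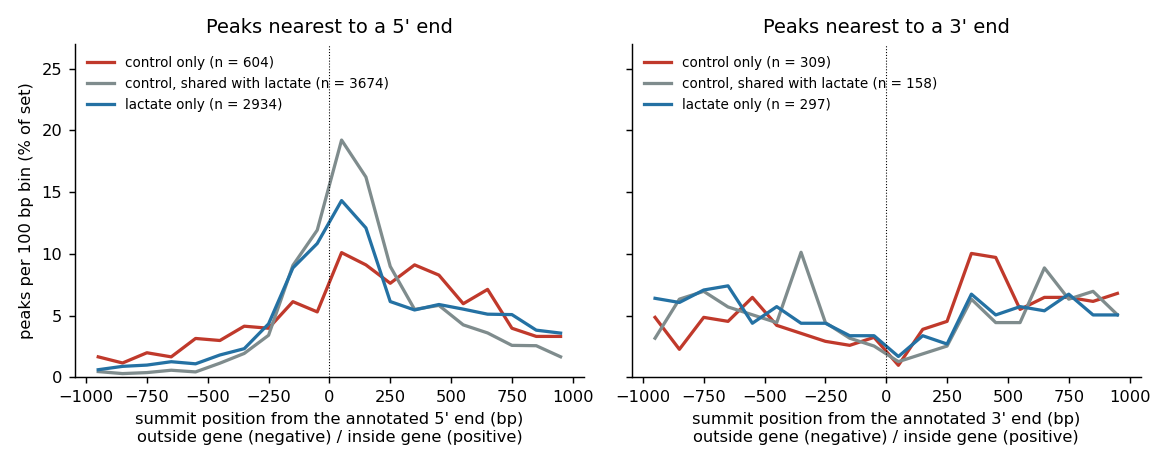
Summit position (bp; negative outside the gene, positive inside) around the nearest 5′ end (left) and 3′ end (right), as the percent of each set's peaks per 100 bp bin, for peaks with known strand and a summit within 1000 bp. Shared and lactate-only peaks crowd just inside the 5′ end, while control-only peaks are spread more evenly, with 36.2% of all 5′ control-only peaks within 250 bp.

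The position of members was also read within bands of pileup. At 11 to 14 reads, 67.3% of members (63.2% to 71.2%) and 95.6% of shared peaks (94.3% to 96.7%) were nearest to the 5′ end. At 15 reads or more the shares were 62.3% (57.5% to 67.0%) and 95.4% (94.5% to 96.1%). The promoter window was overlain by 20.9% of members and 59.5% of shared peaks at 11 to 14 reads, and by 24.2% and 73.8% above that. In both bands the share of members was below that of shared peaks, and for both measures the gap was narrower at 11 to 14 reads than above. These pileup bands were chosen after seeing the data.

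CpG content was read in the promoter windows that a peak overlay. The median ratio of observed to expected CpG was 0.60 over 215 promoters under members, 0.80 over 2735 under shared peaks and 0.80 over 1704 under lactate-only peaks. Over all 21045 promoters of protein-coding genes in the table it was 0.57. A ratio under 0.6 was found in 107 promoters under members, or 49.8% (42.9% to 56.6%). It was found in 19% (17.6% to 20.6%) under shared peaks, 21.2% (19.3% to 23.3%) under lactate-only peaks and 51.9% of all promoters. At 11 to 14 reads the shares were 47.4% under members and 17.0% under shared peaks. Promoters under members were thus close to the whole table in CpG, and those of the other sets were richer. The letters TATAAA, searched on both strands, stood in 17 promoters under members (7.91%), 5.23% under shared and 6.63% under lactate-only peaks, and in 12.7% of all promoters of the same length. The ratio limit and the TATAAA search were chosen after seeing the data. Over all member genes, strand and promoter were found for 79.7%, which is too few for a statement on all of them.

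**Figure D3:**
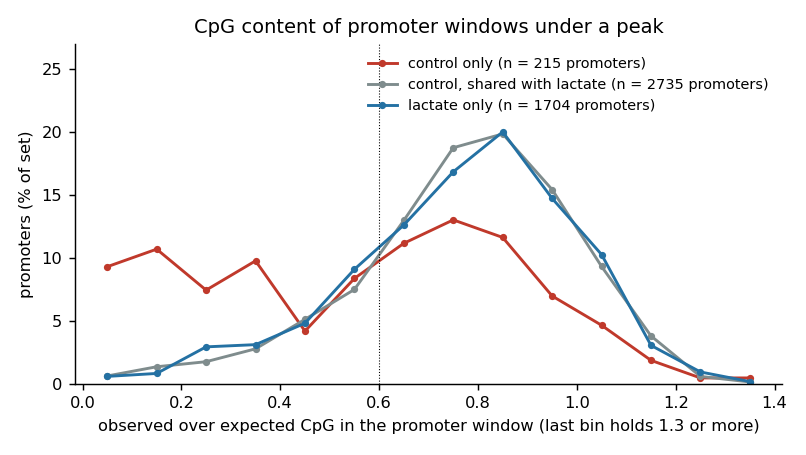
Ratio of observed to expected CpG in promoter windows of 300 bases that a peak overlay, as the percent of each set's promoters per bin, with the last bin holding 1.3 or more; the dotted line is at 0.6. Control-only peaks overlay promoters on both sides of the line (49.8% under it), while the shared and lactate-only curves rise together to a maximum above it.

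Of 44 gene families read from the symbols, 6 held no member gene. Families are described by the share of their genes that had a member, beside 5.34% of all genes. The exact interval lay above that level for 5 families and below it for 0. Genes of a family share sequence and often lie side by side, so they are not independent. The families at or near the background carry no result about the members, and this holds for most.

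The cornified envelope genes (Lce, Sprr and Flg symbols), which build the barrier layer of skin, had members at 13 of 37 genes, or 35.1% (20.2% to 52.5%). A shared peak lay at 2.70% of them and a lactate-only peak at 0 genes. Their 17 members were of 11 to 19 reads. The highest fold was 4.10 at Lce3b, with 19 reads (11.4 to 29.7) in a 389 bp peak, followed by Sprr3 with 3.79 and 14 reads and Lce1f with 3.54 and 13 reads. A −log10 q of 5 was reached by 0 of these 17. These genes lie together on chromosome 3, from 92215835 to 93293689, a block of 1078 kb with 44 genes. It held 54 control peaks, of which 46 overlapped no lactate peak, and 10 lactate peaks, of which 2 overlapped no control peak. Over all peaks, 62.3% of control and 56.6% of lactate peaks were without overlap. Members in this block numbered 20 at 16 genes, the others being at neighbours such as Ivl, the involucrin gene, and Crct1. In a run of 149 kb around Ivl and the Lce1 genes there were 9 members and 0 lactate peaks. In a run of 165 kb from the Lce1l member to Crct1 there were 7 members and 0 lactate peaks, although Lce1l itself carries a lactate peak 795 bp from that member. Both runs are bounded by members, which by rule overlap no lactate peak.

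Defensin genes had members at 11 of 71, or 15.5% (8.0% to 26.0%), with shared peaks at 9.86% and lactate-only peaks at 4.23%. The 13 members ran from 12 to 27 reads. Below Defa35 and Defa3 came Defa41 with a fold of 4.55 and 17 reads, whose peak was 412 bp wide and 653 bp before the gene start. The alpha-defensin block on chromosome 8, from 21025545 to 21735471, is 709.9 kb long with 30 genes. It held 45 control peaks, 35 of them without lactate overlap, and 19 lactate peaks, 9 of them without control overlap. The shares without overlap over all peaks were 62.3% for control and 56.6% for lactate. The nearest lactate peak was 46206 bp from the Defa35 member and 9703 bp from that at Defa3. Both blocks were chosen after seeing the data.

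**Figure D4:**
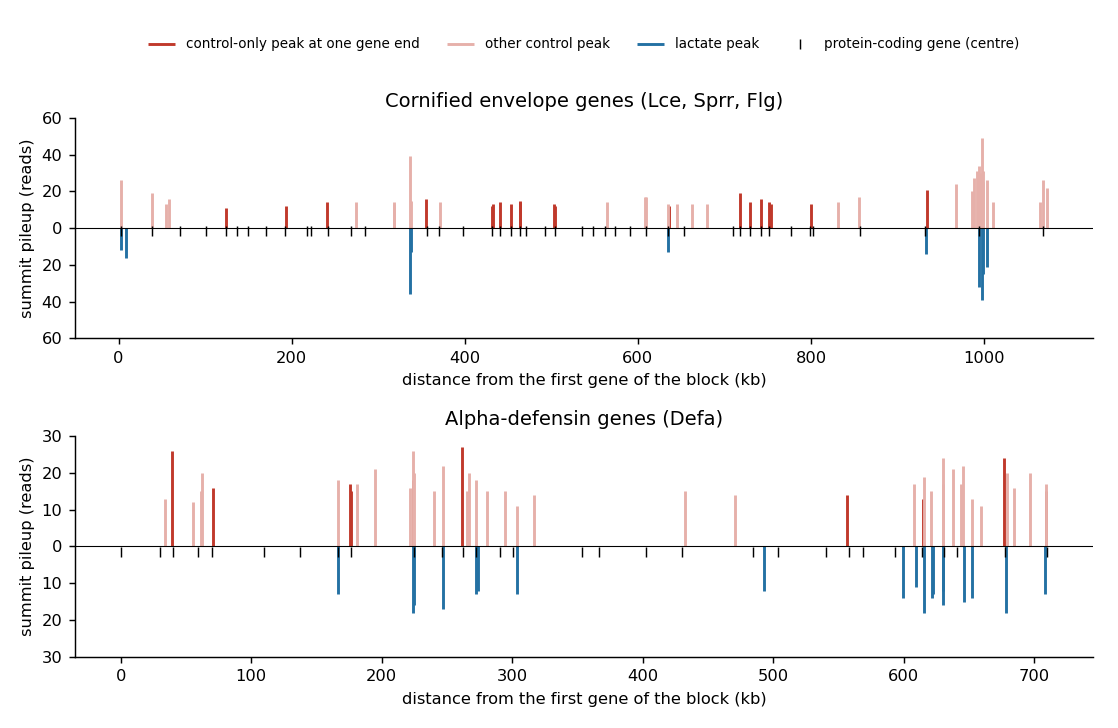
Peaks by distance (kb) from the first gene of the cornified envelope block (top) and the alpha-defensin block (bottom), with bar height the summit pileup (reads): control peaks point up and lactate peaks down, on axes of like scale. Among the cornified envelope genes 54 control peaks face 10 lactate peaks, and among the alpha-defensin genes 45 face 19. Over all chromosomes examined there were 46561 control and 39727 lactate peaks.

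Pramel genes, leucine-rich repeat genes of the germ line and early embryo, had members at 9 of 48, or 18.8% (8.95% to 32.6%), with shared peaks at 0 genes. Their folds were low: 3.33 at Pramel20, 3.20 at Pramel6 and 2.99 at Pramel24, with 15, 17 and 11 reads. Secretoglobin genes, small secreted proteins of mucosa and glands, had members at 6 of 40, or 15% (5.71% to 29.8%). Shared peaks lay at 2.5% of these genes and lactate-only peaks at 7.5%. The highest fold of a secretoglobin member was 4.04 at Scgb1b19 with 15 reads, and Scgb1b29 and Scgb3a1 each had 3.54 with 13 reads. Predicted genes with a Gm number had members at 95 of 1092, or 8.70% (7.10% to 10.5%). Shared and lactate-only peaks were about as frequent at them, at 8.97% and 7.6%.

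Odorant receptors gave the largest number among the families with known products. Members lay at 72 of 1110 olfactory receptor genes, or 6.49% (5.11% to 8.10%), an interval that holds the background of 5.34%. Shared peaks lay at 0.631% of these genes and lactate-only peaks at 0.901%, against 20.1% and 17.2% of all genes. In the other sets this family was thus far below its background, and among members it was at the background. All 72 genes lacked any lactate gene-end peak. The rule asked for no lactate overlap, and few genes of this family had a shared or lactate-only peak. That count is therefore not a finding about the members. The 74 members at these genes ran from 11 to 24 reads with a median of 13, and 1 reached a −log10 q of 5. The highest folds after Olfr824 were 4.55 at Olfr1221 and 4.29 at Olfr1170, with 17 and 16 reads. Olfr209 had 3 members, of 16 to 17 reads. The vomeronasal receptors, which detect pheromones, had members at 20 of 355 genes (5.63%), shared peaks at 1.69% and lactate-only peaks at 0.563%. Vmn2r30 had the highest fold, 4.80 with 18 reads, and Vmn2r84 and Vmn1r28 had 4.04 and 3.73.

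Immune families were small. MHC genes, which present antigen, had members at 5 of 38, with folds of 3.27 at H2-M2, 3.03 at H2-Q6 and 2.94 at H2-K1. C-type lectin genes had members at 4 of 33, and Clec4a2, Clec2i and Clec4b1 stood at 12 to 13 reads. Interleukin and interleukin receptor genes had members at 8 of 83. The highest was at Il6, an inflammatory cytokine gene, with a fold of 4.55 and 17 reads (9.90 to 27.2) 219 bp inside its 5′ end. Il2rb and Il7 each had a fold of 3.54. Cd antigen genes had members at 4 of 100, among them Cd34, Cd180 and Cd84 with folds of 3.68, 3.54 and 3.28. Each of these 4 intervals held 5.34%. Shared and lactate-only peaks lay at 13.2% and 15.8% of MHC genes and at 7.23% and 10.8% of interleukin genes. The shares were 5% and 15% for Cd antigen genes, and 0% and 3.03% for C-type lectin genes. No member lay at a chemokine, interferon, kallikrein, killer cell lectin-like receptor, prolactin, or Rhox and Mage gene.

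Membrane and neuronal families were near the background too. Neurotransmitter receptor genes had members at 7 of 92 (7.61%), led by Gabra2, a GABA-A receptor subunit, with a fold of 4.04 and 15 reads. Grm3, a metabotropic glutamate receptor, had 3.88 and Glra3, a glycine receptor subunit, had 3.79. Potassium channel genes had members at 6 of 94, with folds of 4.08 at Kcna4, 3.93 at Kcnj16 and 3.48 at Kcnh4. The Kcnj16 and Kcnh4 peaks lay 21 and 16 bp from a lactate peak, and that at Kcna4 lay 149901 bp from one. Orphan and adhesion receptor genes had members at 10 of 122. Cadherin and protocadherin genes had members at 4 of 92, Cdh7 and Cdh20 among them. Solute carriers had members at 15 of 389, with folds of 4.04 at Slc46a1, a folate transporter, 3.59 at Slc26a10 and 3.54 at Slc2a13. Cytochrome P450 genes had members at 5 of 99, with folds of 3.51, 3.30 and 3.05 at Cyp26b1, Cyp2b23 and Cyp2d34.

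Some families with many peaks in the other sets had members at about the background. Zfp zinc finger genes had members at 17 of 397 (4.28%), shared peaks at 46.3% and lactate-only peaks at 23.2%. Zfp42, also known as Rex1, a marker of pluripotent cells, had a fold of 3.99, and Zfp354c and Zfp593 had 3.79 and 3.75. Respiratory chain genes had members at 7 of 109 (6.42%) and shared peaks at 28.4%. Cox7a2 and Cox8a, subunits of cytochrome c oxidase, had folds of 4.04 and 3.79, and Atp5b, an ATP synthase subunit, had 3.62 with 22 reads. Cytosolic ribosomal protein genes had members at 2 of 87 and shared peaks at 32.2%, and proteasome genes had members at 2 of 40 and shared peaks at 42.5%. The Psmb7 member, at a proteasome subunit gene, had 24 reads and lay 100 bp from a lactate peak. Members lay at 11 of 238 Tmem, 11 of 175 Fam, 4 of 137 Ccdc and 18 of 420 Rik genes, with no interval away from 5.34%.

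**Figure D5:**
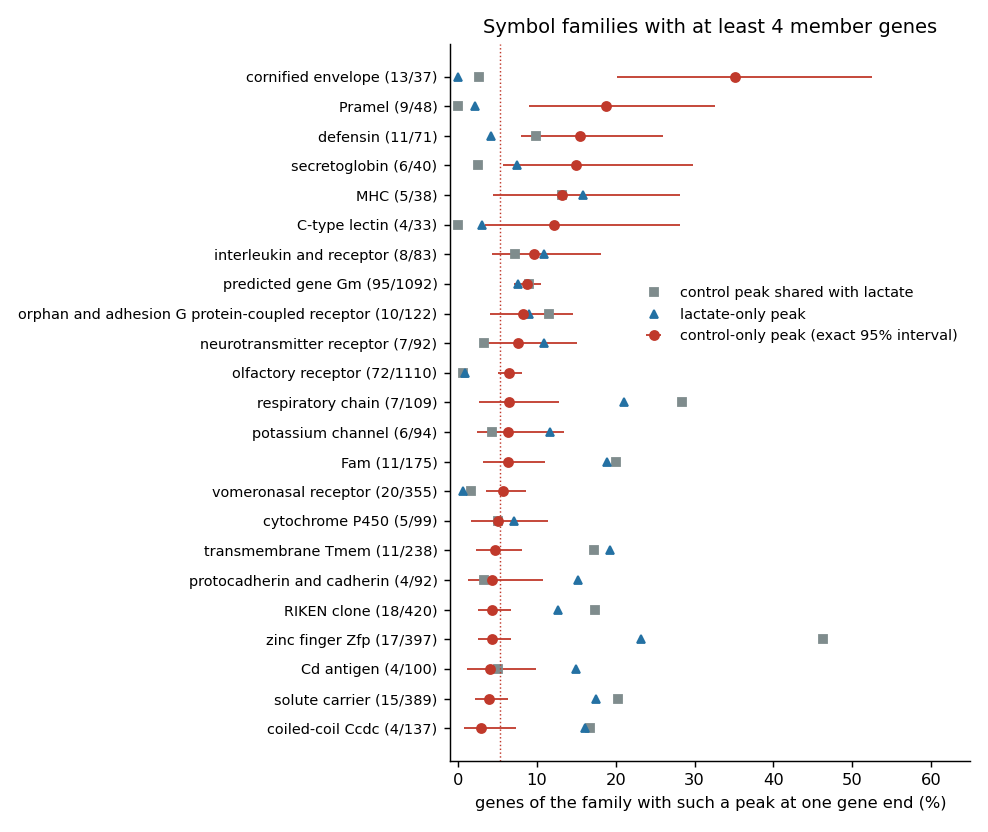
Percent of each family's genes with a control-only peak (circle, with exact 95% interval), a shared control peak (square) or a lactate-only peak (triangle) at an end of exactly 1 gene, for the 23 families with at least 4 member genes; member genes and all genes of the family stand in parentheses. The dotted line is the share of all protein-coding genes with a control-only peak, 5.34%; the cornified envelope, Pramel, defensin, secretoglobin and Gm intervals lie above it.

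The 20 chemosensory, mucosal, skin, immune, placental and germ-line families, grouped after seeing the data, hold 2324 genes, or 10.7% of all protein-coding genes. They supplied 162 of the 1155 member genes, or 14% (12.1% to 16.2%). They supplied 1.10% (0.815% to 1.46%) of genes with a shared peak and 1.73% (1.33% to 2.2%) of genes with a lactate-only peak. The 4 housekeeping families, 1.45% of all genes, supplied 1.21% of member genes, 2.41% of shared and 2.02% of lactate-only genes. Member genes thus resembled the gene table in these shares more closely than the genes of the other sets did.

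Absence of overlap did not always mean a gene without lactate signal. The nearest lactate peak was within 500 bp for 305 members (25.0%), within 1000 bp for 370 (30.3%) and beyond 10000 bp for 566 (46.4%), with a median gap of 8359 bp. Of the 1155 genes, 532 (46.1%) also had a lactate peak at an end, against 45.3% of all genes. A lactate peak lay somewhere from 1000 bp before to 1000 bp after the gene for 700 member genes (60.6%) and for 58.3% of all genes. Both shares were near those of all genes.

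Member genes with and without a lactate gene-end peak differed in make-up. The 20 families above supplied 13 of the 532 genes with one (2.44%) and 149 of the 623 without (23.9%). The median ratio of observed to expected CpG under members was 0.75 over 76 promoters with one and 0.47 over 139 without. The share of these promoters under 0.6 was 34.2% (23.7% to 46.0%) and 58.3% (49.6% to 66.6%). Median gene length was 25350 and 11056 bp. The 5′ share was 61.2% (56.4% to 65.9%) and 68.3% (64.2% to 72.2%), and median pileup was 14 reads in both. This split was added after seeing the data. It follows lactate calls, as the rule does, and lactate-only peaks as a set also lay at few genes of the 20 families. The same split was not made over all genes, so these differences cannot be read as particular to members.

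At the thresholds of the rule the values were close on both sides. The member at Rnps1, a splicing gene, directly adjoined a lactate peak, and those at Rbbp5, a subunit of histone H3 methyltransferase complexes, and Slc46a1 were 1 bp from one. Their pileups were 17, 18 and 15 reads. Control peaks at Grk3 and Olfr699 overlapped a lactate peak by 1 bp and one at Zfp169 by 2 bp, with 11, 14 and 15 reads. At the window's outer edge, members at Rufy3 and Adam26a met it by 3 bp and that at Nsmce4a by 5 bp, with 14, 15 and 13 reads. The nearest control-only peaks outside it missed by 1, 3 and 4 bp, with 15, 23 and 13 reads. At the authors' q threshold of 0.05 the lowest members were at Fancd2os, Gm13777 and Tbx15, with −log10 q of 1.31, 1.32 and 1.33.

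Genes tied to the cell line or to the study's subject were read from 5 short lists, beside the 5.34% of all genes with a member. Counts this small cannot be told from that background. Over all genes, 32.3% had any control gene-end peak and 45.3% any lactate gene-end peak. Of 15 noradrenergic neuroblastoma genes, 4 had any control and 6 any lactate gene-end peak, and 2 had a member. These were Stmn2, a microtubule regulator of neurons, with a fold of 3.47 and 14 reads, and Hand2, a transcription factor of sympathetic neurons, with 2.79 and 11 reads. Of 16 markers of other cell types, 0 had a control gene-end peak and 1, the myelin gene Mbp, had a lactate peak, so these calls hold little to test the label with. Of 26 genes of POMC neurons and energy balance, 2 had a member. Insr, the insulin receptor gene, had a fold of 3.04 and 19 reads 95 bp from a lactate peak, and Socs3, an inhibitor of leptin signalling, had 3.03 and 11 reads. Of 18 lactate-handling genes, Slc16a7, which encodes the lactate transporter MCT2, had 2 members of 17 reads each, with folds of 3.52 and 3.01, and also a lactate gene-end peak. Of 15 genes of histone lactylation and its removal, 0 had a member. A control gene-end peak lay at 8 of them and a lactate gene-end peak at 12, and 8 had both.

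Members lay on every chromosome examined. As a share of the control peaks at an end of exactly 1 gene, they ran from 11.2% (6.53% to 17.5%) on chromosome 19 to 30.8% (26.4% to 35.5%) on chromosome 7, which held 130. Chromosome 7 carries many olfactory and vomeronasal receptor genes. As a share of genes, chromosome 8 had the highest value, 9.20%, followed by chromosome 15 with 8.89%, and chromosome 19 had the lowest, 2.27%. The alpha-defensin block held 9 of the 96 member genes of chromosome 8. Whether the families on a chromosome bear on its share was not tested. Most member genes, 1093, had 1 member, 58 had 2 and 4 had 3.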

How the data were processed

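H4K12la CUT&Tag was measured in 1 NaCl and 1 lactate library of Neuro2a cells. BWA, deepTools and MACS2 on mm10 are named in the submitters' processing notes; for versions, calling settings and a control library, the sources used here state nothing. The authors deposited 1 MACS2 peak list per library, with 46598 control and 39774 lactate peaks, of which 37 and 47 lay outside chromosomes 1 to 19 and X. The deposited fold was read as a ratio of summit pileup to local background within the library, with 1 read added to each. Each peak also has a −log10 p and a −log10 q from the authors. The deposited score, which the authors' peak caller scales from −log10 q, was not used.

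The lists give no read totals, and depth is known only from the background. Whole-number pileups were solved from deposited fold and −log10 p, within 0.001 for 46560 of 46561 control and all 39727 lactate peaks. The solving and the overlap steps were tested on simulated data. Gene ends were those of RefSeq genes on GRCm38.p6, and strand from the promoter table, which holds no chromosome 18. Strand was found for 79.7% of member genes, and for 80.9% of those outside chromosome 18, a count added after the first fell short of 80%. Gene ends without a promoter entry have no 5′ or 3′ value.

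With 1 library per group, no test was run. Shares have exact Clopper-Pearson and pileups exact Poisson 95% intervals, and reads carry no molecular identifiers, so these cover counting error only. Members, gene lists and families were chosen with earlier results of these data known, and symbol patterns that caught wrong genes were corrected after counts were seen. Named genes are the 12 members of highest fold, the 6 widest, the 3 of highest −log10 q not yet named, 3 per family with at least 4 member genes, list members, and the members nearest each threshold. Gm and Rik symbols were passed over where rank by fold, width or q decided. Slc16a7, Ivl, Crct1, Olfr209, Lce1l, Mbp, Gm21083 and the members of lowest −log10 q fall outside that rule and were chosen after their values were seen. The 250 bp band, the runs of members within 100 kb and the families checked under alternatives were also chosen then. Alternatives varied thresholds, overlap, window and gene class. The tools were scipy 1.17.1, pandas 2.3.3, numpy 2.4.6 and matplotlib 3.10.9 under Python 3.11.15.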

Additional observations from a re-analysis of the deposited data

How the results depend on the processing

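Of 104 alternative values, 55 moved by less than their counting interval or, for counts, by less than 1.5 times, and 49 moved further; the cause was not tested. The share of control peaks without lactate overlap was 17.7% with both lists at a −log10 q of at least 2 and 16.9% with the control list alone held to it. Holding both lists to 5 gave 161 members, 160 genes and 11.9%, and the control list alone 33, 33 and 2.44%. Holding both to 10 gave 50, 49 and 33.1%, and the control list alone 3, 3 and 1.99%. The share became 26.8% when sharing required 50% cover, 15.1% and 14.1% when a lactate peak within 500 or 1000 bp counted as shared, 18.8% with any number of genes and 16.7% with lists of equal length. A 500 bp window gave 811 members and 15.7%, and a 3000 bp window 2276, 2045 genes and 29.8%. The 5′ end alone gave 704, 680 and 14.9%, and exactly 1 gene of any kind gave 2466, 2308 and 32.6%.

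With the control list at a −log10 q of at least 2, member genes fell to 3 Pramel, 7 defensin and 1 MHC. At 5 they were 2 defensin, 1 olfactory receptor, 1 vomeronasal receptor, and 0 cornified envelope, Pramel, secretoglobin, MHC, C-type lectin and interleukin genes. With a lactate peak within 1000 bp counted as shared, 7 defensin and 2 MHC genes were left, and with a 500 bp window 4 Pramel, 12 vomeronasal receptor and 2 C-type lectin genes. The 5′ share was 61.2% at genes with a lactate gene-end peak and 68.3% at genes without. Median width, fold, pileup and distance moved little without Gm and Rik or receptor genes, or with members touching the gene alone. Promoter CpG moved little without receptor genes. Keeping peaks nearest to the 5′ end alone gave the same values, 0.60 and 49.8%. Only peaks over a promoter window enter this measure, so that alternative could hardly change it and is no check. Its values are counted among the 55 above. Only 12.4% of members had a pileup interval wholly above 11 reads, and how far depth bears on the members was not tested. No paired analysis was possible because each group has 1 library.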
